A study of Mus musculus with 8 samples.

Results

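The genes described are 10 marker genes of pericytes, the mural cells that wrap capillaries: Rgs5, Rgs4, Pdgfrb, Abcc9, Steap4, Cspg4, Mcam, Higd1b, Gucy1a3 and Gucy1b3. They were taken by symbol from an RNA-seq table of mouse muscle stem cells with 45706 gene lines, in which each symbol stood on 1 line, and all 10 were among the 19054 genes with enough counts to be tested. Every group was wild-type C57BL/6, from hindlimb muscle of mice aged 8 to 12 weeks, described as female in the labels. Cells had been sorted by flow cytometry for α7-integrin and CD34, and against CD45, Sca1, CD31 and CD11b. In the fresh group (n = 5) RNA was taken after sorting, and in the cultured group (n = 3) after 48 h on a hydrogel of 12 kPa in medium with fetal bovine serum. Fresh replicates 1 to 3 were sequenced on their own (run 1), while fresh replicates 4 and 5 went onto 1 lane together with cells from culture (run 2). The labels do not say whether libraries came from separate animals or cultures, so a p-value here reflects the scatter of these libraries, which may be technical only.

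Pericytes sit in the basement membrane of small vessels next to the endothelium and, with smooth muscle cells, form the mural layer. Endothelial cells recruit them with the growth factor PDGF-B, which binds the receptor encoded by Pdgfrb, and they set vessel tone through G protein signalling, nitric oxide and ATP-sensitive potassium channels. None of the surface proteins that the sort selected against marks mural cells as a class, and α7-integrin, which it selected for, is also made by smooth muscle. CD34 is not a usual mural marker. The markers differ in how tightly they belong to the pericyte: Rgs5, Abcc9, Higd1b and Pdgfrb are standard in single-cell studies, whereas Rgs4, Cspg4 and Mcam are also known from neurons, glial progenitors, smooth muscle or endothelium.

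Promoter windows for some of the members whose values moved together, and for the exception Rgs4, are shown first as examples. Each runs from 250 bases before to 50 after the annotated start, 5′ to 3′ on the gene's strand, from RefSeq on build GRCm38.p6, where 8 of the 10 genes had an entry (not Pdgfrb and Higd1b). Capitals mark matches, on either strand, to an E-box (CANNTG), the core of RBPJ, the DNA-binding partner of Notch (TGGGAA, or TTCCCA on the other strand), and the TEAD core (CATTCC, or GGAATG on the other strand). The windows are Rgs5 (chr1:169655251-169655550, plus strand), Rgs4 (chr1:169747593-169747892, minus strand), Abcc9 (chr6:142702225-142702524, minus strand), Gucy1a3 at its second annotated start (chr3:82145024-82145323, minus strand) and Gucy1b3 (chr3:82074662-82074961, minus strand).
Rgs5: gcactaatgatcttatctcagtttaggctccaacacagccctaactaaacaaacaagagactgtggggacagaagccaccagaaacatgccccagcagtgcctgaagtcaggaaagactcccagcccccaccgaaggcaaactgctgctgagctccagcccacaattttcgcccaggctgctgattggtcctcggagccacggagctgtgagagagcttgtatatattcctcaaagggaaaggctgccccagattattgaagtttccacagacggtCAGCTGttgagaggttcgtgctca
Rgs4: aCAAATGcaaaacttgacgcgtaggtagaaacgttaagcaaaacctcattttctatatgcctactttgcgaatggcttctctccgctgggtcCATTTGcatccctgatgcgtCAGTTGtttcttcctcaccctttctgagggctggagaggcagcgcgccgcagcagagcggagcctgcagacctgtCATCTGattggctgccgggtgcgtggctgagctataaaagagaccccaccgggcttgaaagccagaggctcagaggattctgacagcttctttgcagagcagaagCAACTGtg
Abcc9: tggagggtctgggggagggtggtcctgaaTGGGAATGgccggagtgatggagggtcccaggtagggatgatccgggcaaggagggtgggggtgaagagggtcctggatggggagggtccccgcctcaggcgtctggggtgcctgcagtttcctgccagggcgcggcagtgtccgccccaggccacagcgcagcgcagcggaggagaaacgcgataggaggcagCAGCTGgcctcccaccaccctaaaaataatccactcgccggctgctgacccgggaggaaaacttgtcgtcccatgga
Gucy1a3: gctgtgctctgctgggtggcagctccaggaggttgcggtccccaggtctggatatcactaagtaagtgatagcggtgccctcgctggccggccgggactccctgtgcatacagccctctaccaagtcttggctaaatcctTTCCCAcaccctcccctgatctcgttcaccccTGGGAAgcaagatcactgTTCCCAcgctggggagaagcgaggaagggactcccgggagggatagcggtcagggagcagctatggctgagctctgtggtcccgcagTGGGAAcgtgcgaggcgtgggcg
Gucy1b3: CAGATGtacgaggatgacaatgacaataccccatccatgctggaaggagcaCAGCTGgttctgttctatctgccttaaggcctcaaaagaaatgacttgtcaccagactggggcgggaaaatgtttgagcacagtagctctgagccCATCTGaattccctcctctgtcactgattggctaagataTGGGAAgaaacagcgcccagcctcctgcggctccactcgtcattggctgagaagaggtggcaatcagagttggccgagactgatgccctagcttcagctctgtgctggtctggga
The 8 genes had 9 windows, Gucy1a3 having 2. The windows of Steap4, Cspg4 and Mcam and the first of Gucy1a3 were searched but are not shown. Of these only the Steap4 window held an RBPJ core, so the windows shown are richer in it than those left out. The RBPJ core was in 4 of the 9 windows (1 each of Abcc9, Steap4, Gucy1a3 and Gucy1b3), against 25.6% of all 32851 windows of this length. In the Gucy1a3 window it began at -110, -78, -60 and 28 from the start, and in the Gucy1b3 window at -65. The other Gucy1a3 window held no RBPJ core. In Abcc9 it began at -221 and overlapped the TEAD match, the only TEAD match among the 9 windows (14.7% of all windows). E-boxes were in 7 of the 9 windows, against 72.3% of all windows. The Rgs5 window held 1 and the Rgs4 window 5. Neither the forkhead core (GTAAACA, 3.65% of windows) nor the CArG box that serum response factor binds (1.63%) was found in any of the 9. These matches describe letters in the windows only.

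Total counts were 13919508 to 20068199 per library, so 1 count stood for 0.0508 to 0.0666 CPM, the unit of all levels here (a count divided by the library's total after scaling with TMM factors). Markers of the labelled cell type were present in every fresh library. Pax7, the transcription factor of muscle stem cells, was at 1358, 1199.6, 667, 1252 and 1306 CPM in fresh replicates 1 to 5. The 14 stem cell markers summed to 7357, 6629, 6824, 6861 and 6919.9 CPM there, with fresh replicate 1 highest. Run-1 libraries held counts for 32710 to 34689 genes, and the run-2 fresh libraries for 20480 and 20898. Mitochondrial ribosomal RNA took 5.25 to 10.5% of counts in run 1 and 23.2 to 26.5% in run-2 fresh libraries.

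All 10 markers were detected in every fresh library, and fresh replicate 1 was the lowest of the 5 for 9 of them. Across all tested genes, 14.9% had fresh replicate 1 below every other fresh library. Summed over the 10 genes, the level was 344, 2329.9, 2142, 1616 and 1518 CPM in fresh replicates 1 to 5, so replicate 1 lay far below the other 4. In bulk RNA, fewer cells of a type and less RNA per cell cannot be told apart. The plot by library shows each gene's values.

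**Figure D1:**
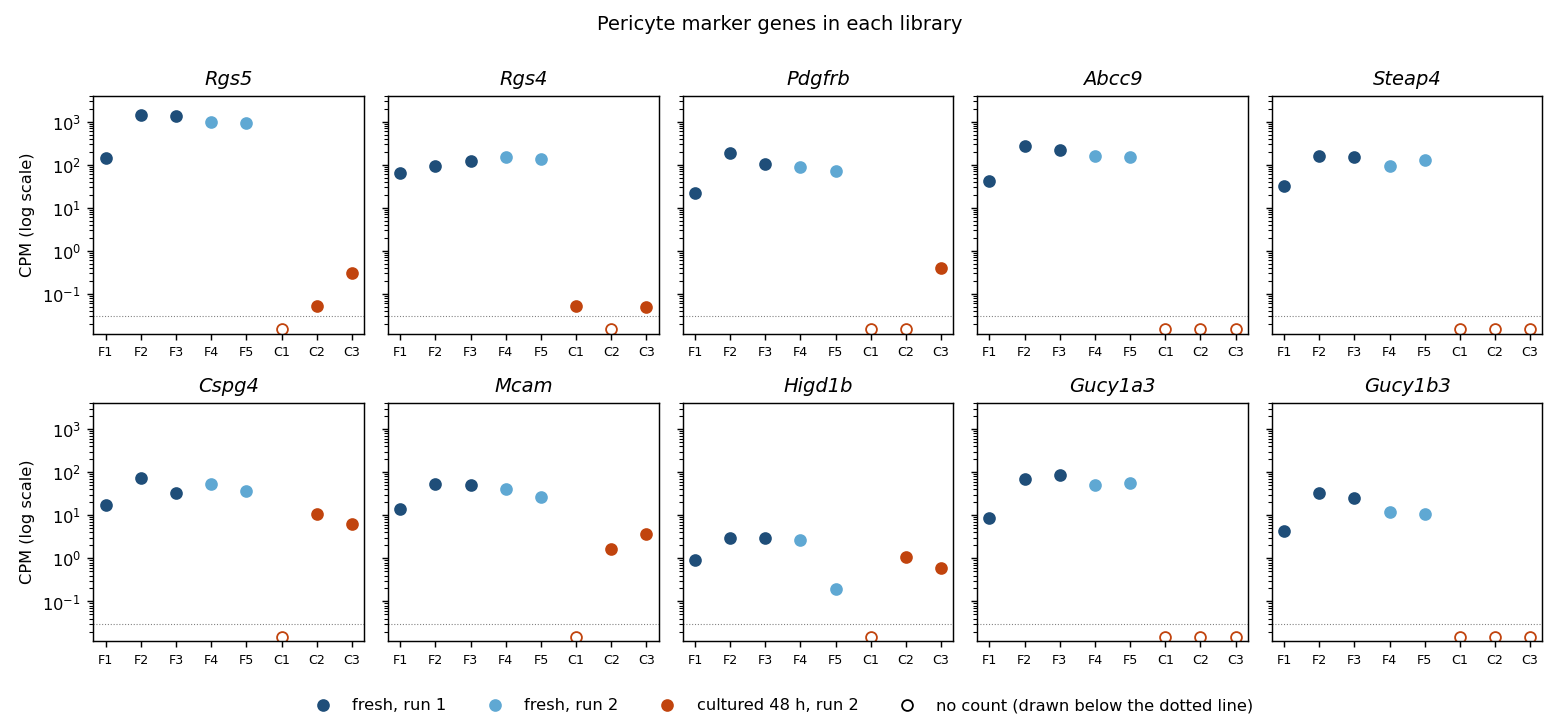
Level of each of the 10 genes in CPM (log axis) in fresh replicates 1 to 5 (F1 to F5) and cultured replicates 1 to 3 (C1 to C3), 1 point per library, with open circles for libraries with no count. Fresh replicate 1 is the lowest fresh point in 9 panels, with Higd1b the exception, and 9 panels have every cultured point below every fresh one.

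Rgs5, a regulator of G protein signalling that shortens the signal of activated receptors, was the most abundant member. Its levels in fresh replicates 1 to 5 were 139.7, 1387, 1348, 972 and 906 CPM, and in cultured replicates 1 to 3 they were 0, 0.0513 and 0.305 CPM (0, 1 and 6 counts). Fresh replicate 1 was 9.78-fold below the mean of fresh replicates 2 and 3, while replicates 4 and 5 were within 1.53-fold of replicates 2 and 3. Rgs4, its neighbour and relative in the same subfamily, had fresh levels of 64.9, 94.9, 122, 149.7 and 137 CPM and cultured levels of 0.0525, 0 and 0.0508 CPM, the latter from 1, 0 and 1 counts. Its fresh libraries lay within 2.30-fold of each other, the narrowest range of the 10, and replicate 1 was 1.67-fold below replicates 2 and 3.

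The 3 surface proteins were less abundant. Pdgfrb, the PDGF receptor β, had fresh levels of 22.4, 187, 103, 88.4 and 70.9 CPM. It had no count in cultured replicates 1 and 2 and 8 counts (0.406 CPM) in replicate 3. Its range of 8.34-fold over the fresh libraries ran from replicate 1 to replicate 2, and without replicate 1 it was 2.64-fold. Cspg4, the NG2 proteoglycan, stood at 16.9, 71.6, 33.3, 52.6 and 36.0 CPM in fresh replicates 1 to 5. In culture it was at 0, 10.7 and 6.30 CPM (0, 208 and 124 counts). Mcam, the adhesion molecule CD146, stood at 14.1, 53.8, 49.8, 40.4 and 26.0 CPM in fresh and 0, 1.64 and 3.71 CPM in cultured replicates (0, 32 and 73 counts). For both genes the cultured libraries lay below the fresh ones without overlap, with replicate 1 at no count and replicates 2 and 3 above it.

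Among channel and nitric oxide genes, Abcc9, the sulfonylurea receptor subunit of the vascular ATP-sensitive potassium channel, stood at 41.0, 269, 219, 156 and 150.4 CPM in fresh replicates 1 to 5. Gucy1a3 and Gucy1b3 encode the α and β subunits of soluble guanylate cyclase, the nitric oxide receptor that makes cGMP. Gucy1a3 was at 8.64, 71.2, 85.1, 51.4 and 55.1 CPM and Gucy1b3 at 4.26, 32.4, 25.7, 11.7 and 11.0 CPM in the same order. None of these 3 genes had a count in any cultured library. Fresh replicate 1 was 5.95-fold, 8.95-fold and 6.66-fold below replicates 2 and 3 for Abcc9, Gucy1a3 and Gucy1b3. For all 3 genes, both run-2 libraries lay between replicate 1 and the other run-1 libraries. The same held for Rgs5, Pdgfrb, Steap4 and Mcam, but not for Rgs4, Cspg4 or Higd1b.

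Steap4, a metalloreductase of iron and copper handling, was at 31.7, 159.9, 153, 90.6 and 126 CPM in fresh replicates 1 to 5 and had no count in culture. Higd1b, a small mitochondrial membrane protein of the hypoxia-induced gene family, was the least abundant member, at 0.909, 3.00, 2.99, 2.71 and 0.195 CPM in fresh and 0, 1.08 and 0.610 CPM in cultured replicates. Its fresh values rest on 16, 45, 50, 43 and 3 counts. Fresh replicate 5 was its lowest library and lay below cultured replicates 2 and 3, so only for Higd1b did the groups overlap. Per kilobase of exon, the mean fresh level was highest for Rgs5 (209 ± 110.5 CPM per kb, mean ± SD, n = 5), then Rgs4 (36.7 ± 11.0), Steap4 (35.6 ± 16.7), Abcc9 (20.0 ± 10.2) and Pdgfrb (17.2 ± 11.0). Mcam (11.0 ± 4.96), Gucy1a3 (7.79 ± 4.14), Gucy1b3 (4.33 ± 2.95), Cspg4 (3.53 ± 1.74) and Higd1b (2.31 ± 1.55) followed. Apart from the step from Rgs5 to Rgs4, neighbours in this order differed by less than the larger of their SDs over the fresh libraries. These SDs include the low values of fresh replicate 1 that most of the genes share, so they do not measure the order within a library. Gucy1a3, for example, exceeded Gucy1b3 in every fresh library, by 1.14-fold to 2.83-fold.

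To compare fresh libraries without the run, each was set against the other fresh libraries of its own run, as a log2 ratio with no test, since 1 library has no replicate. In fresh replicate 1 the median of the 10 genes was -2.44 (range -3.29 for Rgs5 to -0.74 for Rgs4), against a median of -0.06 over all tested genes. A ratio of -1 or lower was reached by 9 of the 10 genes, all but Rgs4, and by 10.7% of all tested genes. Among genes with a fresh mean of at least 10 CPM, as 9 of the members had, 4.52% reached it. For Rgs5, 0.346% of tested genes were as low or lower in replicate 1, for Gucy1a3 0.493%, and for Rgs4 16.3%. The members' median was 0.84 in fresh replicate 2 and 0.57 in replicate 3, whose comparison sets include replicate 1. It was 0.12 in replicate 4 and -0.12 in replicate 5, which were each set against the other. Within run 2, only Higd1b passed a ratio of 1 in size (3.19 in replicate 4), with 43 and 3 counts. The share of all genes at -1 or lower was 6.00% in replicate 2, 5.31% in replicate 3, 16.5% in replicate 4 and 14.7% in replicate 5.

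**Figure D2:**
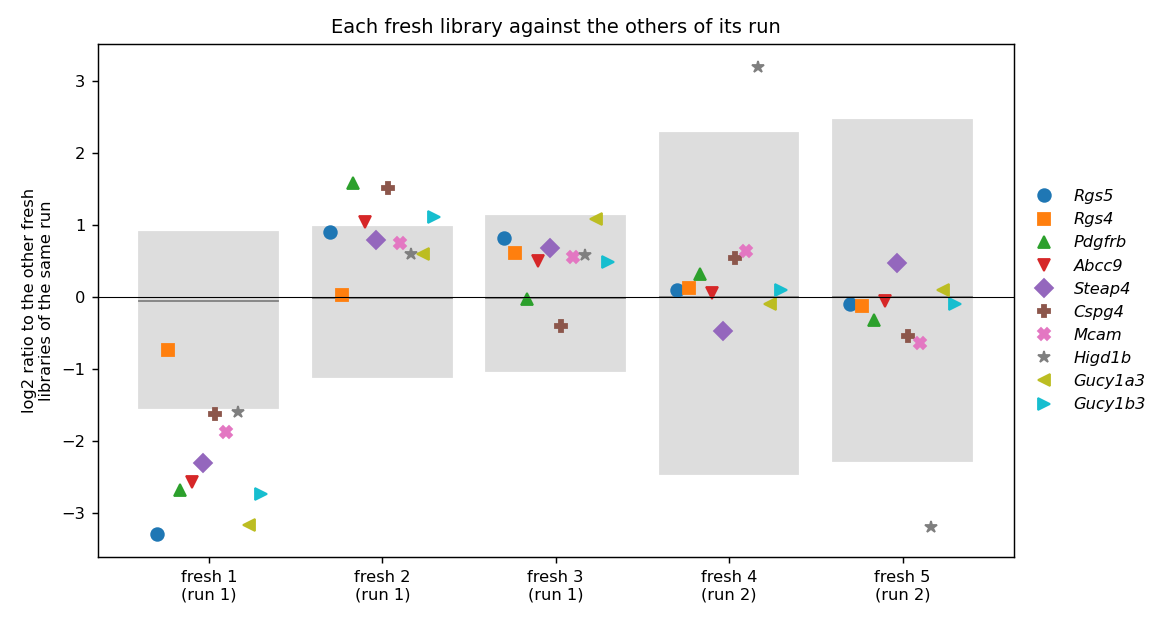
Log2 ratio of each fresh library to the mean of the other fresh libraries of its run, for the 10 genes (symbols), with the 5th to 95th percentile of all 19054 tested genes as a grey bar and their median as a line. In fresh replicate 1 all genes but Rgs4 lie below the lower end of the bar, and in run 2 only Higd1b lies outside it.

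The range over the fresh libraries is given with and without replicate 1. As that library was the lowest for 9 of the genes, leaving it out must narrow their range. The highest fresh library exceeded the lowest by a median of 7.08-fold over the 10 genes with all 5 libraries, and by 1.93-fold over replicates 2 to 5. Only Higd1b kept a range above 3-fold there (15.4-fold).

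Markers of other cell types were low together with the pericyte genes in fresh replicate 1. The 18 smooth muscle genes summed to 451, 1434, 1427, 987 and 1022 CPM in fresh replicates 1 to 5, and 16 of 18 had a log2 ratio of -1 or lower in replicate 1 (list median -2.40). Myh11, the smooth muscle myosin, was at 31.5, 286, 277, 180.1 and 153 CPM, and Acta2, smooth muscle actin, at 163, 352, 357, 234 and 252 CPM. The 12 Schwann cell genes summed to 633, 1531, 1105, 899 and 896 CPM, with 9 of 12 at -1 or lower (median -3.22). The 6 tendon genes summed to 40.4, 232, 427, 67.5 and 87.7 CPM, with 5 of 6 at -1 or lower (median -2.39), and here both run-2 libraries were low as well. The 15 fibro-adipogenic genes summed to 937, 1448, 1492, 1539 and 1385 CPM, with 10 of 14 tested at -1 or lower (median -1.38). Among the most abundant of them, Col3a1 (log2 ratio 0.002) and Dpt (0.46) were not low in replicate 1, while Dcn (-1.68) and Col1a2 (-2.60) were.

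The endothelial and blood sums were also lowest in fresh replicate 1. The 16 endothelial genes summed to 102, 129.8, 178, 141 and 127 CPM, and 6 of 11 tested were at -1 or lower (median -1.04). Tek, the angiopoietin receptor gene, was the most abundant, at 67.9, 52.6, 88.5, 78.5 and 82.8 CPM, Cdh5, which encodes VE-cadherin, was at 11.4, 18.3, 21.2, 33.1 and 9.74 CPM, and Fabp4, a fatty acid carrier gene of capillaries and fat cells, was at 2.44, 19.5, 27.0, 19.0 and 19.7 CPM. Fabp4 was low in replicate 1 (log2 ratio -3.19), while Tek (-0.05) and Pecam1 (0.35) were not. The defining genes Cldn5 and Sox17 were at or below 0.179 CPM in every library. The 16 blood genes summed to 28.4, 58.7, 77.3, 69.8 and 49.8 CPM, and 3 of 8 tested were at -1 or lower (median -0.16). Lyz2, the lysozyme gene of myeloid cells, was at 5.68, 35.0, 48.4, 62.5 and 43.1 CPM and low in replicate 1 (log2 ratio -2.85). The macrophage gene Cd68 was at 7.95, 8.19, 9.69, 2.46 and 4.03 CPM (-0.17). Lyz2 made up most of the blood sum in fresh replicates 2 to 5. Ptprc (5.62, 1.13, 7.71, 0 and 0 CPM, log2 ratio 0.34) was not low in replicate 1. Neither was Itgam (3.01, 3.00, 1.14, 0.0630 and 0.130 CPM, log2 ratio 0.52). Tyrobp and C1qa stayed at or below 0.114 CPM. Myofibre genes, at 41.4, 49.1, 41.4, 42.7 and 40.7 CPM, had 1 of 11 at -1 or lower. None of the 14 stem cell markers was at -1 or lower (median 0.19). What part these other cell types' RNA has in the members' values was not tested.

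**Figure D3:**
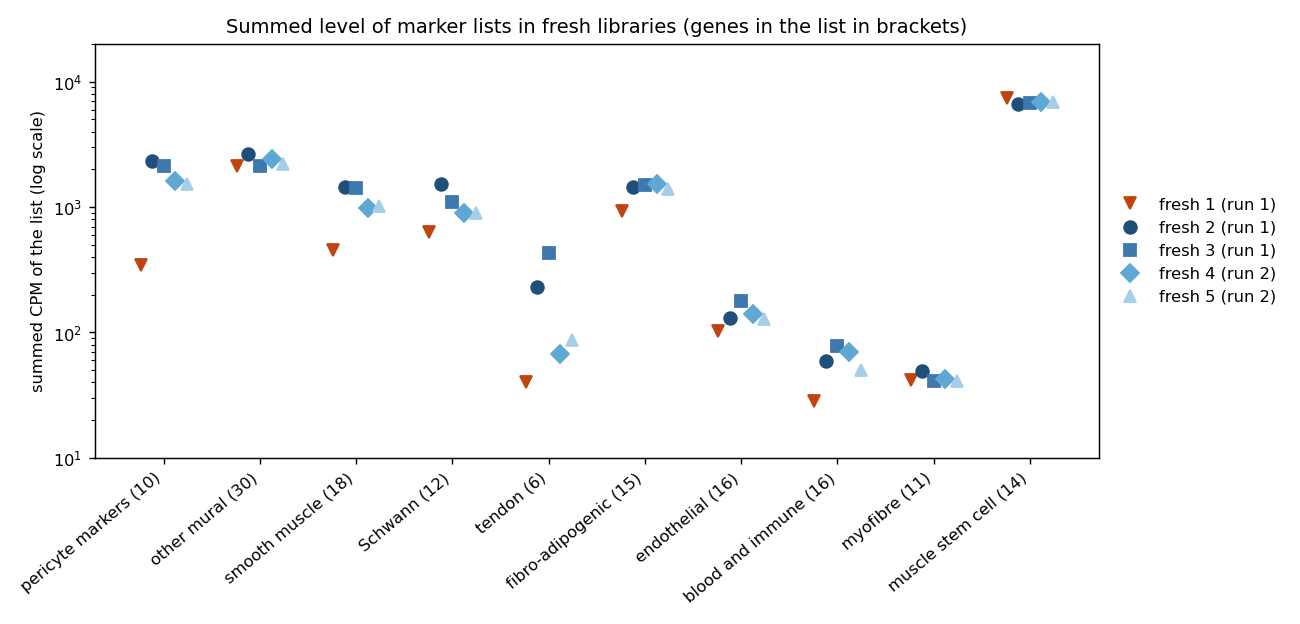
Summed CPM (log axis) of each marker list in the 5 fresh libraries, 1 point per library. The pericyte, smooth muscle, Schwann, tendon, fibro-adipogenic, endothelial and blood sums are lowest in fresh replicate 1, while its stem cell sum is the highest of the 5.

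Of 30 further mural genes, 17 had a log2 ratio of -1 or lower in fresh replicate 1, and the list split. The endothelin receptor gene Ednrb (1.93, 18.4, 25.4, 9.89 and 12.9 CPM in fresh replicates 1 to 5) and the gap junction gene Gja4 (0.852, 13.9, 4.54, 8.38 and 13.6 CPM) were low there. The Notch effector Heyl (815, 734, 545, 770.5 and 575 CPM), the receptor gene Notch3 (364, 535, 318, 366 and 367 CPM) and Des, which encodes desmin (447, 448, 359.9, 395 and 435 CPM), were not, and are also genes of muscle stem cells. These 3 abundant genes dominate the sum of the list, 2126, 2649, 2142, 2429 and 2208 CPM, and Ednrb and Gja4 were picked as examples after their values were seen.

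Of the 10 genes, 4 form pairs of neighbours in the GENCODE M21 annotation of mm10. Rgs5 (chromosome 1, 169655501 to 169695813) and Rgs4 (chromosome 1, 169741477 to 169747642) lie 45.7 kb apart on opposite strands, with no protein-coding gene between them. Gucy1b3 (chromosome 3, 82032006 to 82074689) and Gucy1a3 (chromosome 3, 82092427 to 82145789) lie 17.7 kb apart on the same strand. Abcc9 (chromosome 6, 142587862 to 142702315) lies 16.2 kb from Kcnj8, which is not one of the 10 and encodes the pore of the same channel. Steap4 is on chromosome 5, 7960457 to 7982213, Mcam on chromosome 9, 44134469 to 44142727, Cspg4 on chromosome 9, 56865033 to 56899870 and Higd1b on chromosome 11, 102835849 to 102838040. All 10 are protein coding. Exons of Abcc9 and Mcam overlap antisense transcripts over 158 and 17 bases, and the sources used here do not say whether counting used strand.

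The neighbours did not keep a fixed ratio. The per-length level of Rgs5 over that of Rgs4 was 1.47, 9.96, 7.55, 4.43 and 4.51 in fresh replicates 1 to 5, lowest in replicate 1. Gucy1a3 over Gucy1b3 was 1.14, 1.24, 1.87, 2.47 and 2.83, lower in the 3 run-1 libraries than in both run-2 libraries. Abcc9 over Kcnj8 was 0.495, 0.913, 1.14, 0.813 and 1.49, again lowest in replicate 1, where Kcnj8 stood at 25.2 CPM against 89.6 and 58.8 CPM in replicates 2 and 3. No test was made of these ratios.

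**Figure D4:**
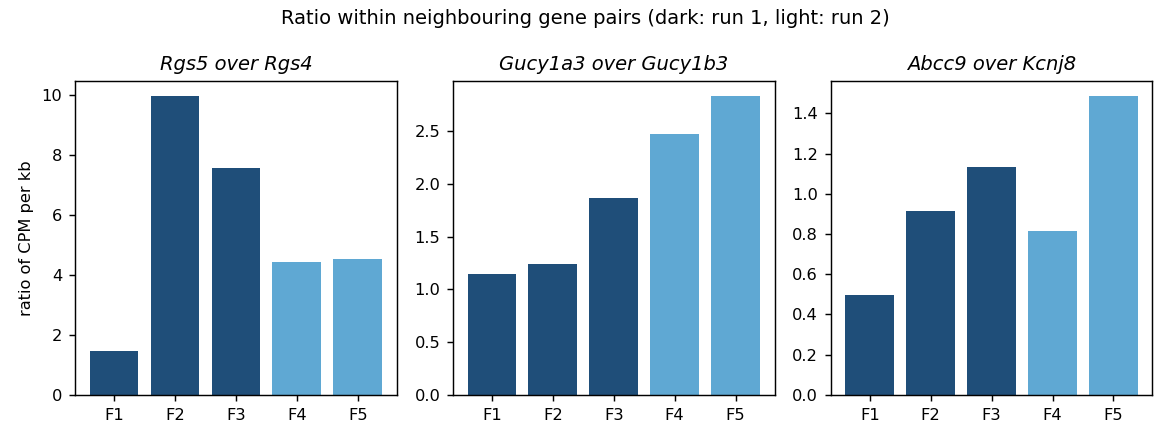
Ratio of CPM per kb of exon within 3 pairs of neighbouring genes in fresh replicates 1 to 5 (F1 to F5), 1 bar per library, each axis starting at 0. The Rgs5 to Rgs4 bar is 1.47 in replicate 1 and 4.43 to 9.96 in the others, and the Gucy1a3 to Gucy1b3 bars are taller in run 2.

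Setting culture against fresh isolation asks which transcripts differ after 48 h outside the animal. Of the 10 genes, 8 were lower in culture at an adjusted p of 0.05 (quasi-likelihood test of edgeR, a model with terms for run and culture, Benjamini-Hochberg adjustment over 19054 genes) and none was higher. Cspg4 and Higd1b did not pass. Without fresh replicate 1 it was 7 genes, Mcam being lost, without cultured replicate 1 it was 9, Cspg4 being added, and without both libraries it was 9. Over all tested genes 18.0% were lower and 8.87% higher, 3431 and 1691 genes, a split that became 2857 and 2450 without scaling factors. All cultured libraries lay below all fresh ones for 9 of 10 members and for 26.1% of tested genes. The members' median log2 fold change was -11.19, against -0.21 over all genes. It lies between the values of Rgs4 (-11.75) and Gucy1b3 (-10.62). Gucy1b3 had no count in culture, so the size of the median depends on the prior count of the fit.

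With run in the model the fold changes set cultured libraries against fresh replicates 4 and 5, so fresh replicate 1 enters only through the spread. For the 4 genes with no count in culture, folds are lower bounds, computed against a floor of 3 counts in the cultured libraries together, 0.0515 CPM. Against fresh replicates 4 and 5, Abcc9 was at least 2972-fold lower (adjusted p = 0.000761, edgeR), Steap4 at least 2098-fold (0.000670) and Gucy1a3 at least 1034-fold (0.00186). Gucy1b3 was at least 220.1-fold lower than in fresh replicates 4 and 5 (adjusted p = 0.00356, edgeR). Set against fresh replicate 1 alone, the lowest fresh library, the bounds were still at least 795-fold for Abcc9, 615-fold for Steap4, 168-fold for Gucy1a3 and 82.7-fold for Gucy1b3. No count in any cultured library was seen for 4 of the 9 members with a fresh mean of at least 10 CPM, against 1.73% of all genes at that level.

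Of the genes with a few counts in culture, Rgs4 had the smallest error. Its mean was 114 ± 34.0 CPM in fresh (± SD, n = 5) and 0.0344 ± 0.0298 CPM in cultured libraries (n = 3), and it fell in the test (adjusted p = 2.14e-05, edgeR quasi-likelihood test). Over fresh replicates 4 and 5 against culture the ratio was 4170.2, from 2 cultured counts, with a 95% counting interval of 1154 to 34445. Without cultured replicate 2 the ratio was 2774. Rgs5 gave a ratio of 7812 (3791 to 19432) from 7 cultured counts (adjusted p = 0.000391, edgeR), 6 of them in cultured replicate 3, without which it was 36193 from 1 count. Pdgfrb gave 580.5 (294 to 1346; adjusted p = 0.00185, edgeR). All its 8 cultured counts came from replicate 3, and without that library it was at least 1023-fold lower.

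Mcam, Cspg4 and Higd1b kept counts in cultured replicates 2 and 3. Mcam fell from 36.8 ± 16.6 to 1.78 ± 1.86 CPM (log2 fold change ± SE of -4.21 ± 1.29; adjusted p = 0.0408, edgeR). The call is close to the threshold: its adjusted p was 0.0565, 0.0734, 0.0764, 0.155 and 0.101 in edgeR without fresh replicates 1 to 5 in turn, 0.0820 without cultured replicate 2, 0.0641 without scaling factors and 0.148 with run 2 alone. The log2 fold change of Mcam was -3.57 without cultured replicate 1 and -5.27 without replicate 3. Cspg4 was at 42.1 ± 20.8 and 5.66 ± 5.37 CPM (-2.97 ± 1.37; adjusted p = 0.142, edgeR), and passed without cultured replicate 1, the library with no count (-2.32; adjusted p = 0.0242, edgeR). Higd1b was at 1.96 ± 1.31 and 0.562 ± 0.540 CPM (-1.36 ± 1.56; adjusted p = 0.566, edgeR). Leaving out fresh replicate 4 turned its sign (1.56; adjusted p = 0.688).

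Many markers of other cell types were lower in culture too. In the same edgeR test 14 of 18 smooth muscle genes fell, 10 of 12 Schwann genes, 12 of 14 tested fibro-adipogenic genes, 4 of 6 tendon genes, 5 of 11 tested endothelial genes, 3 of 8 tested blood genes and 4 of 11 myofibre genes, and none of these rose. Summed levels in cultured replicates 1 to 3 were 146, 91.8 and 87.3 CPM for smooth muscle, 2.00, 6.05 and 21.5 CPM for Schwann cells, 21.4, 22.5 and 10.2 CPM for fibro-adipogenic cells, 8.25, 4.62 and 15.6 CPM for tendon, 37.4, 1.74 and 46.9 CPM for endothelium, 5.62, 11.8 and 3.96 CPM for blood and 79.1, 26.1 and 19.6 CPM for myofibres, against 0.0525, 13.4 and 11.4 CPM for the 10 pericyte genes. Of the 14 stem cell markers 11 fell and 1 rose, and their sum was 1463, 1579 and 1373 CPM. What part other cells' share of the RNA has in the members' fall was not tested.

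Cultured replicate 1 had no count for 9 of the 10 genes, all but Rgs4. At no count in that library were 30.3% of all tested genes and 8.40% of those with a fresh mean of at least 10 CPM, among which were 8 of 9 members. Cultured replicate 1 also held counts for fewer genes (15415) than replicates 2 and 3 (17852 and 17806).

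Between the runs of fresh cells the 10 genes showed no called difference. None passed the run term of the same edgeR model, none had an unadjusted p below 0.05, and none passed in DESeq2, while 0.189% of all tested genes (36) passed in edgeR, 0.0945% in each direction. With the fresh libraries alone, 4574 genes passed and again none of the 10. That fit filtered the genes anew and its number of tested genes is not given here, so no share stands beside this count. The largest differences, run 2 minus run 1 on the log2 scale, were -0.87 ± 0.95 for Gucy1b3 (adjusted p = 0.828, edgeR), -0.66 ± 1.60 for Higd1b and 0.61 ± 0.37 for Rgs4. Run 1 includes fresh replicate 1, without which all members but Rgs4 were lower in run 2 and none was called. Rgs5 averaged 958 ± 709 CPM in run 1 (n = 3) and 939 CPM in run 2 (n = 2).

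Genes that act with the markers were taken from lists, with p-values from the same edgeR fit, and are read against the 18.0% lower, 8.87% higher and median log2 fold change of -0.21 over all tested genes. The list medians were -2.78 for the R4 family of RGS genes, -3.07 for the other RGS genes, -1.60 for PDGF, -0.93 for STEAP and HIG1, -4.93 for receptors of vessel tone and -3.40 for mural development. Lists with genes at no count in culture have medians that depend on the prior count. Of the other R4 family RGS genes, 4 of 8 were tested, 2 were lower in culture and 1 higher. Rgs2, at 59.5, 60.2, 66.8, 81.8 and 89.4 CPM in fresh replicates 1 to 5, fell by 5.35 on the log2 scale (adjusted p = 0.00491). Rgs16 rose from 48.7, 76.7, 92.1, 68.0 and 49.4 CPM in those libraries to 166, 193 and 172 CPM in culture (1.59 ± 0.33; adjusted p = 0.00829). Rgs8 was the other that fell, from 3.30 ± 2.18 CPM to no count (adjusted p = 0.0187), and Rgs3 did not pass (adjusted p = 0.946). None of these 8 genes reached -1 in fresh replicate 1, whereas Rgs5 of the same family was at -3.29. Of 9 tested RGS genes outside the R4 family, 2 rose (Rgs12, 3.96 ± 0.54, and Rgs19, 3.00 ± 0.65) and 2 fell (Rgs9, -5.23 ± 1.10, and Rgs11, -4.60 ± 1.32). The adjusted p-values of these 4 lay between 0.00154 for Rgs12 and 0.0315 for Rgs11.

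Among 7 PDGF genes, 3 fell, 1 rose and 3 did not pass. Those that fell were Pdgfrb, the receptor-like gene Pdgfrl (41.2, 32.1, 18.5, 59.3 and 53.6 CPM fresh, no count in culture; adjusted p = 0.000253) and the ligand gene Pdgfd (adjusted p = 0.0100). Unlike Pdgfrb, Pdgfrl had a log2 ratio of 0.70 in fresh replicate 1. The ligand gene Pdgfa rose, from 16.2, 31.1, 25.1, 78.7 and 51.8 CPM fresh to 129.6, 124 and 212 CPM cultured (1.25 ± 0.39; adjusted p = 0.0452). Pdgfb, the endothelial ligand of Pdgfrb, was between 0.114 and 1.43 CPM in fresh libraries and did not pass (adjusted p = 0.486). Of the ATP-sensitive potassium channel genes, Abcc9 and Kcnj8 fell, and Kcnj8, at 25.2, 89.6, 58.8, 58.3 and 30.8 CPM fresh, had no count in culture (adjusted p = 0.000623). Their relatives Abcc8 (up to 1.46 CPM fresh; adjusted p = 0.958) and Kcnj11 (up to 0.466 CPM, not tested) were near zero.

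Of 17 tested nitric oxide and cGMP genes, both cyclase members included, 8 fell and 9 did not pass, with a median log2 fold change of -2.80. In fresh replicate 1, 11 of the 17 were at -1 or lower. The phosphodiesterase genes Pde3a (239, 247, 334, 311 and 370.3 CPM) and Pde1c (142, 106, 112, 259 and 299.8 CPM), the most abundant of the list in fresh cells, fell in culture (adjusted p = 0.0112 and 2.14e-05) but were not low in fresh replicate 1, with log2 ratios of -0.29 and 0.39. Among 7 tested STEAP and HIG1 genes only Steap4 was called. Its relative Steap2 stood at 13.4, 18.6, 15.4, 37.3 and 19.5 CPM in fresh replicates 1 to 5 (adjusted p = 0.281) and the Higd1b relative Higd1a at 15.6, 11.9, 17.9, 40.6 and 19.9 CPM (adjusted p = 0.801). Of 16 tested G-protein-coupled receptor genes of vessel tone, 10 fell and none rose. The thrombin receptor gene F2r (403, 373, 414, 598 and 522 CPM fresh; -1.98 ± 0.51; adjusted p = 0.0200) and P2ry14 (108, 91.0, 162, 159 and 147 CPM; -5.06 ± 0.63; adjusted p = 0.00106) fell, and S1pr3 did not pass (adjusted p = 0.354). Of 21 tested genes of mural development, 11 fell and 1 rose, the growth factor gene Vegfa (1.60 ± 0.50; adjusted p = 0.0429).

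The genes whose pattern over the 5 fresh libraries was most like the members' were found by the root mean square difference between each gene's centred log2 CPM and the median profile of the 10, over 7710 other genes. These had an identifier and a fresh mean of at least 10 CPM, and predicted genes, small RNAs, mitochondrial genes and pseudogenes were passed over. The 10 nearest were Pear1, Limch1, Apod, Lama4, Serpine2, Cd59a, Igfbp7, Itgb8, Sipa1l2 and Mylk, at 0.103 to 0.222 log2 units, against a median of 0.964 over all genes compared. Their log2 ratios in fresh replicate 1, -2.40 to -1.86, follow from this choice and are a description. Their levels in culture differed. Apod, a secreted lipid carrier, went from 29.6, 129, 109, 87.7 and 82.0 CPM in fresh replicates 1 to 5 to 0, 0 and 0.102 CPM in cultured replicates 1 to 3, and Lama4, the laminin α4 chain of vessel basement membrane, from 11.6, 63.1, 58.1, 31.9 and 33.6 CPM to no count (adjusted p = 0.000260 and 0.00119, edgeR). Serpine2, a protease inhibitor gene, stood at 8.07, 46.4, 39.8, 27.6 and 33.2 CPM in fresh and 52.1, 28.7 and 84.4 CPM in cultured libraries and did not pass (adjusted p = 0.414). Sipa1l2 did not pass either (0.505), nor did Itgb8 (0.0626), and the other 7 of the 10 were lower in culture. Mylk, the myosin light chain kinase gene, is also in the smooth muscle list.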

How the data were processed

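RNA-seq was done on 5 fresh and 3 cultured libraries. Expected counts, which the authors deposited as 1 table with a column for each library, were used throughout. STAR, RSEM and build mm10 are named, per the submitters' processing notes, without versions or an annotation release. Per the labels' protocols, cDNA was amplified with NuGEN Ovation v2. No molecular identifier is mentioned there, and intervals and floors hold for counting error alone.

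Of 45798 lines, 92 ERCC spike-in lines were left out. Counts were rounded to whole numbers, since 50.1% of values above 0 were not whole, filtered with filterByExpr and scaled by TMM. The test was edgeR 4.0.16 (R 4.3.3), quasi-likelihood, with run and culture as terms and 5 residual degrees of freedom. Each SE was approximated from the test statistic. Log2 ratios between fresh libraries used log2 CPM with a prior count of 2. DESeq2 1.42.0, other scalings, no filter, run subsets and single libraries left out were alternatives. Only the culture term of the test was checked on simulated counts, which held no run effect and no library set apart, so that check does not cover the run term. The members and gene lists were chosen with earlier results of these data known. Named genes are all members, some of the most abundant genes of most lists (at most 3 or 4 in each), and the 10 genes most like the members. In the lists of genes that act with the markers, those behind a count of 5 or fewer called are also named. No tendon or myofibre gene is named. Pax7 was named for the stem cells, although Sdc4 had the higher fresh mean (1925 against 1156 CPM). Within lists, Ednrb, Gja4, Kcnj11, Pdgfb, Ptprc, Itgam, and the near-zero markers of other cell types were named after their values were seen.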

Additional observations from a re-analysis of the deposited data

Results flagged for a closer look

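Over the 5 fresh libraries, the gap between the outermost library and its nearest neighbour was compared with the whole range for the 10 members' CPM and for 10 sums of marker lists. A share above 0.71 stands out, and chance gives about 1 in 20 of such groups. None of the 10 members reached it, the highest being Rgs5 at 0.614, and neither did their sum (0.591). These shares were computed on CPM, a scale on which a low library weighs less than on the log2 scale of the ratios above. The log2 scale was not tried, so they do not show that fresh replicate 1 was unremarkable for the members. Of the 20 groups 2 did: the fibro-adipogenic sum, at 0.746, with fresh replicate 1 low (937 CPM against 1385 to 1539 CPM), and the myofibre sum, at 0.763, with fresh replicate 2 high (49.1 CPM against 40.7 to 42.7 CPM).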

How the results depend on the processing

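Of the 10 members, 7 to 9 were lower in culture and none was higher under every alternative run, and none was called between the runs of fresh cells under any. The members' median log2 ratio in fresh replicate 1 was -2.44 to -2.39 with other library totals or a prior count of 0.5. The number of all genes called between runs, 36, became 1948 with DESeq2, 4574 with the fresh libraries alone, 81 with no filter on low counts and 16 without fresh replicate 1 and cultured replicate 1 together, which was chosen after seeing the data, and 1 to 117 when single libraries were left out (1 without fresh replicate 5, 117 without cultured replicate 1). Of all genes, 5122 were called in culture, 2780 with run 2 alone and 3337 to 6163 without single libraries (lowest without fresh replicate 5, highest without cultured replicate 1). The cause of these shifts was not tested. Fewer samples enter the fits with libraries left out.

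With the replicate block, which sets cultured against run-1 fresh libraries, 2731 genes were called, and 8 members as in the fit without it. The deviations of libraries with the same number correlated at 0.030, 0.010 and 0.011, and those with different numbers at -0.018 to 0.0096. Each library correlated best with its own number. With so few libraries, these correlations cannot decide whether the numbers mark pairs or are only shared labels.

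Differences between runs were small for most members, and for all but Gucy1b3 and Rgs4 the sign changed with the setting. Without fresh replicate 1, all but Rgs4 (0.37) were lower in run 2, from -0.27 for Cspg4 to -1.38 for Gucy1b3, and none was called. The low ends of the ranges below come from that fit, except for Higd1b. For Cspg4 (main value 0.13) the log2 difference was -0.26 without scaling factors, -0.18 without fresh 1 and cultured 1, and -0.27 to 0.82 without single libraries. For Gucy1a3 it was 0.0067 with fresh libraries alone, 0.046 without a filter, and -0.58 to 0.41 without single libraries. For Rgs5 it was 0.022, 0.064, and -0.57 to 0.34 under the same settings. For Steap4 it was 0.00047 without a filter and -0.56 to 0.23 without single libraries. The ranges without single libraries were -0.70 to 0.24 for Abcc9, -3.49 to 0.29 for Higd1b, -0.67 to 0.095 for Mcam and -0.89 to 0.36 for Pdgfrb. In culture, Higd1b ranged from -2.22 to 1.56. Higd1b had the fewest counts of the members in fresh libraries, with 3 in fresh replicate 5, whose total was 18276317 counts.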

Other observations

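Some endothelial and mural-receptor genes had counts in culture that differed between the cultured libraries. Pecam1, which encodes CD31, a protein the sort selected against, stood at 35.0, 0.103 and 38.0 CPM in cultured replicates 1 to 3 and at 4.49, 2.66, 4.31, 0.882 and 0.195 CPM in fresh replicates 1 to 5 (adjusted p = 0.0677, edgeR quasi-likelihood test). The sphingosine phosphate receptor gene S1pr3 was at 136, 2.51 and 0.457 CPM in culture, high in replicate 1, the library with no count for 9 of the pericyte genes. Nes, the nestin gene and a marker of both pericytes and dividing progenitors, was the 1 gene of the further mural list that rose, from 10.5, 41.0, 27.5, 27.2 and 32.8 CPM fresh to 433, 431 and 359 CPM cultured (3.76 ± 0.55; adjusted p = 0.00206, edgeR). Among the 30 genes of that list 19 fell and 10 did not pass.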
